A study of Rattus norvegicus with 8 samples.

Results

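The genes described here are 46 rat genes of the G2 phase and mitosis, the stretch of the cell cycle in which a cell with copied chromosomes prepares to divide and then divides. A member was taken up where a gene probe of the array carried, with its version removed, a RefSeq transcript of one of 46 chosen symbols. All 46 were on the array, with 66 probes out of 45598 gene probes, and the array held 16581 gene symbols in all. The study electroporated plasmid DNA in vitro into retinas dissected from Lister hooded rats on postnatal day 0 and measured RNA with 1-colour Agilent microarrays. The control group (4 arrays) received a control plasmid, and the Klf4 group (4 arrays) received one for Klf4, which encodes a transcription factor with zinc fingers. Both groups were cultured as explants for 39 hours, dissociated, and sorted by FACS for GFP-positive, that is transfected, cells before total RNA was extracted. The labels number the arrays of each group 2 to 5. They do not give the promoter of the plasmids, how many retinas went into a sample, or whether the numbers are separate litters or days, so a p-value here reflects only how these samples vary, and that variation may be technical. No genotype or sex was given, and the cells were never untreated: the control is itself an electroporated and sorted population.

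In the retina of a newborn rat, progenitor cells still divide, and a cell that leaves the cycle stops making most of the transcripts described here. Entry into mitosis is driven by cyclin B bound to the kinase CDK1, helped by the Polo and Aurora kinases; the spindle checkpoint then holds the anaphase-promoting complex (APC/C) in check until every chromosome is attached to the spindle. Transcripts of these genes rise together late in the cycle, through a promoter element called CHR and CCAAT boxes that bind NF-Y, under the MuvB complexes with B-MYB and FOXM1.

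Promoter sequences are shown because most of the members moved together from array to array. RefSeq promoters (build GRCr8, from 250 bases before to 50 bases after the start of the gene, 300 bases in all) were matched by symbol to 42 of the 46 genes, and the first listed was used for the 2 genes with more than 1. The 4 without an entry were Ube2c, Tpx2, Aurkb and Cdca2. Capitals mark CHR letters (TTTGAA or TTCGAA, on either strand) and CCAAT letters (CCAAT, on either strand, so that ATTGG is the same box read on the other strand). Cdk1, Ccnb2 and Plk1 are given because they hold both motifs and their transcripts moved with the main pattern; Ctcf is given as 1 of 6 members that hold neither. These were picked as examples: among the members with neither motif, Ctcf varied least (SD over the 8 arrays 0.107) and Kif2c most (0.75). They lie at chr20:19265043-19265342 (plus strand), chr8:79981609-79981908 (minus strand), chr1:186147408-186147707 (plus strand) and chr19:50431595-50431894 (plus strand), and each is printed 5′ to 3′ along its gene.
Cdk1: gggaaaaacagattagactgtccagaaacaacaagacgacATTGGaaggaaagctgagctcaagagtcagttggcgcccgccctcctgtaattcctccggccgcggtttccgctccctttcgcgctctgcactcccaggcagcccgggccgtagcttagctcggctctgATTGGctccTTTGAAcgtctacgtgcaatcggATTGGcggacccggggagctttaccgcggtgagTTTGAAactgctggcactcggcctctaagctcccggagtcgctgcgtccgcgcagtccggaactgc
Ccnb2: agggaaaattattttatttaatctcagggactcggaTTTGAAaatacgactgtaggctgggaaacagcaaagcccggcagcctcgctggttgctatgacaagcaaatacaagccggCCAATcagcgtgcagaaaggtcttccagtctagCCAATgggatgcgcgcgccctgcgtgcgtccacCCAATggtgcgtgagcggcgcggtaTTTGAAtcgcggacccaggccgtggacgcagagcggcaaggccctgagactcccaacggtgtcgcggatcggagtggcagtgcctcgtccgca
Plk1: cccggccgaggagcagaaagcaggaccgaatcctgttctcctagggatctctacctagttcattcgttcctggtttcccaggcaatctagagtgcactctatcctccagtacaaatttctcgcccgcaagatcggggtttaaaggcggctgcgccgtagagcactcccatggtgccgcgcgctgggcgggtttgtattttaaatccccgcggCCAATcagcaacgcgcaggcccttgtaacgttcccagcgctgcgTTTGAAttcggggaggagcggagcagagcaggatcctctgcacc
Ctcf: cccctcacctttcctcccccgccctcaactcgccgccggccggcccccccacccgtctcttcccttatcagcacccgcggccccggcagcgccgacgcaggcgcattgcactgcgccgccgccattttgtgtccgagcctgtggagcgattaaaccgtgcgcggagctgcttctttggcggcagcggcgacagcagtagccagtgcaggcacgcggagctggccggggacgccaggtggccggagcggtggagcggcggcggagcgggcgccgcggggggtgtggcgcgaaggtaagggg

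CHR letters stood in 29 of the 42 promoters (69%), against 19.7% of all 33469 promoters of the same length. A CCAAT box stood in 31 (73.8%), against 37.5% of all. Both motifs were present in 24 members (57.1%), against 7.95% of all promoters, and 21 members (50%) had 2 or more CCAAT boxes, against 11.2%. The Cdk1 promoter held CCAAT letters at positions -210, -81 and -49 and CHR letters at -72 and -16, counted to the first base of the match from the start of the gene. In the members, the median position was -97.5 for CCAAT, over 70 matches from -242 to -30, and -57.5 for CHR, over 38 matches from -243 to 33. The E2F letters TTTCCCGC or TTTGGCGC stood in 0 of the 42 promoters and in 1.45% of all. The letters GGGNGTGG, a KLF-type box searched on both strands, stood in 11 (26.2%), against 15.2% of all. The median GC content was 59.7% in the members and 51.7% in all promoters. A match of letters describes the window and is not evidence that a factor binds there.

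Signals are given as log2 of the background-corrected, processed spot signal minus the 75th percentile of that array's gene probes, so that 0 is the 75th percentile, and 1 unit is a 2-fold difference. Each gene is represented by its brightest probe, and no level of one gene is set against that of another. The 8 arrays lay on 1 slide scanned in 2 runs; both arrays numbered 5 were in the second. The 75th percentile of the signal ran from 1237 to 1718 on the 6 arrays of the first scan and was 732 and 787 on the 2 of the second. Control arrays were in columns 1 and 3 of the slide and Klf4 arrays in columns 2 and 4, so column and group cannot be told apart. The scanner's own quality report was outside a limit on the 2 arrays numbered 4. All 14 progenitor and all 10 photoreceptor markers found on the array were well above background on all 8 arrays. Ptprc (microglia and other leukocytes), Lum (fibroblasts), Tyr, Tyrp1 and Mlana (pigment epithelium) and Hbb (red blood cells) were not well above background on any array. Other markers of those lists were detected. Well above background on all 8 arrays were 6 of 10 microglial and 5 of 8 pericyte and fibroblast markers. So were 1 of 6 pigment epithelium and 6 of 7 red blood cell markers. The probe for Klf4 read -3.87, -2.45, -3.58 and -3.18 in the controls and -3.70, -1.74, -3.36 and -3.19 in the Klf4 group (limma adjusted p = 0.912), but whether it matches the insert of the plasmid is unknown from the labels and files used, and it is no check of the groups.

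Between the Klf4 and control groups none of the 46 genes passed the test in either direction. The limma fit over all 31072 features, with Benjamini-Hochberg adjustment at 0.05, called 0 members higher and 0 lower. Of all features 3.62% were called, 3.17% higher and 0.451% lower. Among the features, 13595 were genes with a symbol and the rest single probes without one. Shares of all features are therefore not shares of genes. At an unadjusted p under 0.05 it gave 1 member, Tmpo, against 11.9% of all features (5.29% lower). That count was 0 in 6 of the 8 fits that left out an array (control 2, 3 or 4, Klf4 2, 4 or 5), 2 without control 5 and 3 without Klf4 3. It was also 0 without both arrays numbered 4, on the array median, without the filter on dim probes and with the slide row as a block, and 2 with probes averaged. In 0 of 46 members did the arrays of one group lie wholly below or above those of the other, against 10.1% of features (4.47% with Klf4 lower, 5.64% with Klf4 higher). The Klf4 mean was below the control mean in 43 members and above it in 3, with a median log2 difference of -0.36. Over all features 61.2% were below, with a median of -0.068. The differences ran from -0.66 for Cdca8 to 0.30 for Tubb4b, a fold of 0.633 to 1.23. The 95% intervals of the fold reached 2-fold lower in 30 members and 2-fold higher in 0, and stayed inside 2-fold both ways in 16; at this spread a 2-fold lower level could not be told from no difference in those 30. The difference was smaller than the standard deviation (SD) of the control arrays in 36 members, than that of the Klf4 arrays in 43, and than both in 35. In sorted bulk RNA, fewer cells in G2 or mitosis and less RNA of these genes per cell cannot be told apart.

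**Figure D1:**
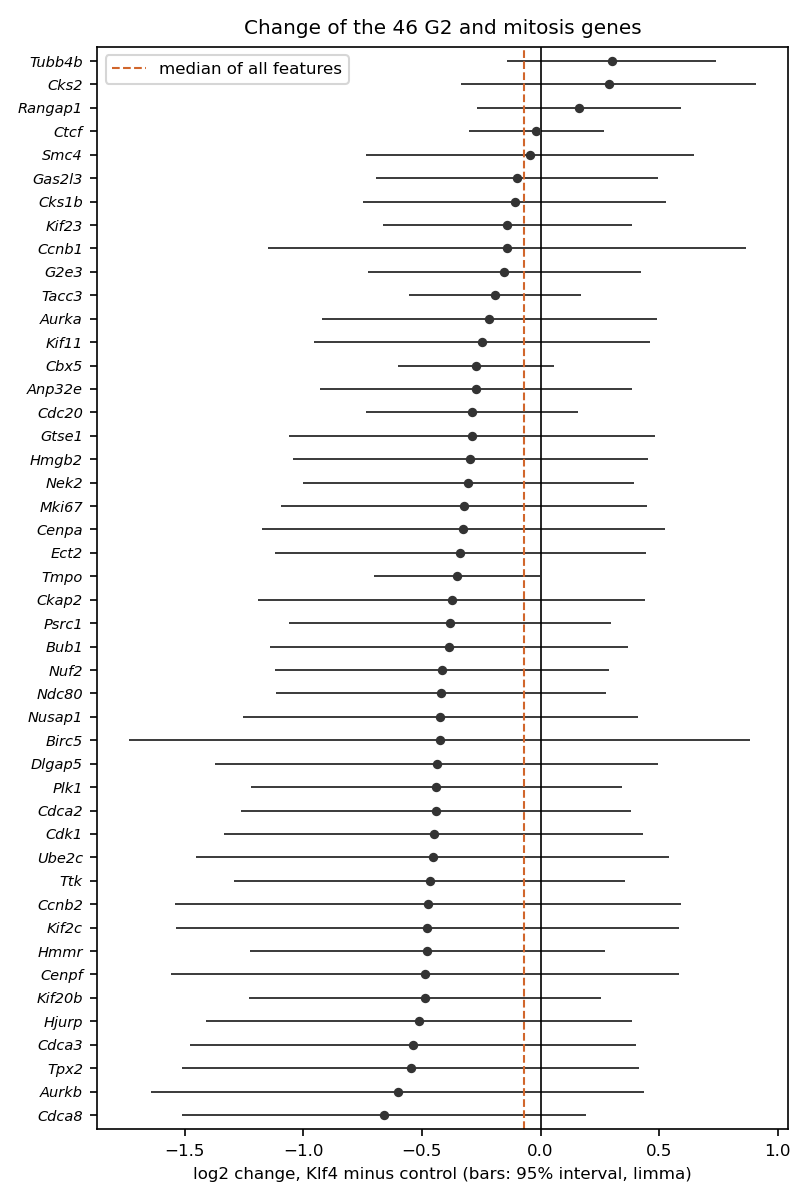
The log2 difference of each of the 46 genes, Klf4 minus control, is plotted as a point with its 95% interval from limma (4 arrays per group); the dashed line is the median of all features, -0.068. All but 3 points lie left of 0, and every interval except that of Tmpo includes 0.

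The size of the summary depended on single arrays. The median difference was -0.18 without control 5, -0.20 without Klf4 2 and -0.56 without Klf4 3, against -0.36 with all 8, and -0.23 over the 6 arrays of the first scan alone. With array quality weights in limma it was -0.05, with 31 of 46 members below 0; that fit gave control 5, Klf4 4 and Klf4 5 weights of 0.251, 0.137 and 0.434. With the scan as a block it stayed at -0.36, with 43 members below 0. The design fixed this result, since each scan held as many control as Klf4 arrays. Such a block cannot move the difference of a gene with all 8 values, only its p-value.

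Arrays of the same group differed by more than the groups did in most members, and most members shared the order of the arrays. The mean of the 46 genes, each as its deviation from its own mean over arrays, was -0.18, 0.079, -0.023 and 0.75 on control arrays 2 to 5 and -0.65, 0.35, -0.41 and 0.065 on Klf4 arrays 2 to 5. Control 5 therefore stood highest and Klf4 2 lowest, and the ranges of the groups overlapped between -0.18 and 0.35. Of the members, 40 (87%) had their highest of all 8 values on control 5, against 20.9% of all features, and 30 (65.2%) their lowest on Klf4 2, against 11.6%. Klf4 4 was lowest for 9 more (19.6%), fewer than the 28.4% of all features. On the brightest probe of each gene, the exceptions to control 5 were Cks1b and G2e3 (highest on control 2), Cenpa (control 4), Gtse1 and Tacc3 (Klf4 3) and Rangap1 (Klf4 4). Control 5 exceeded the median of the other controls in 43 members, by a median of 0.93 (from -1.04 to 1.72). Within the Klf4 group, Klf4 3 exceeded Klf4 2 in 44 of 45 members with both values, by a median of 1.16.

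**Figure D2:**
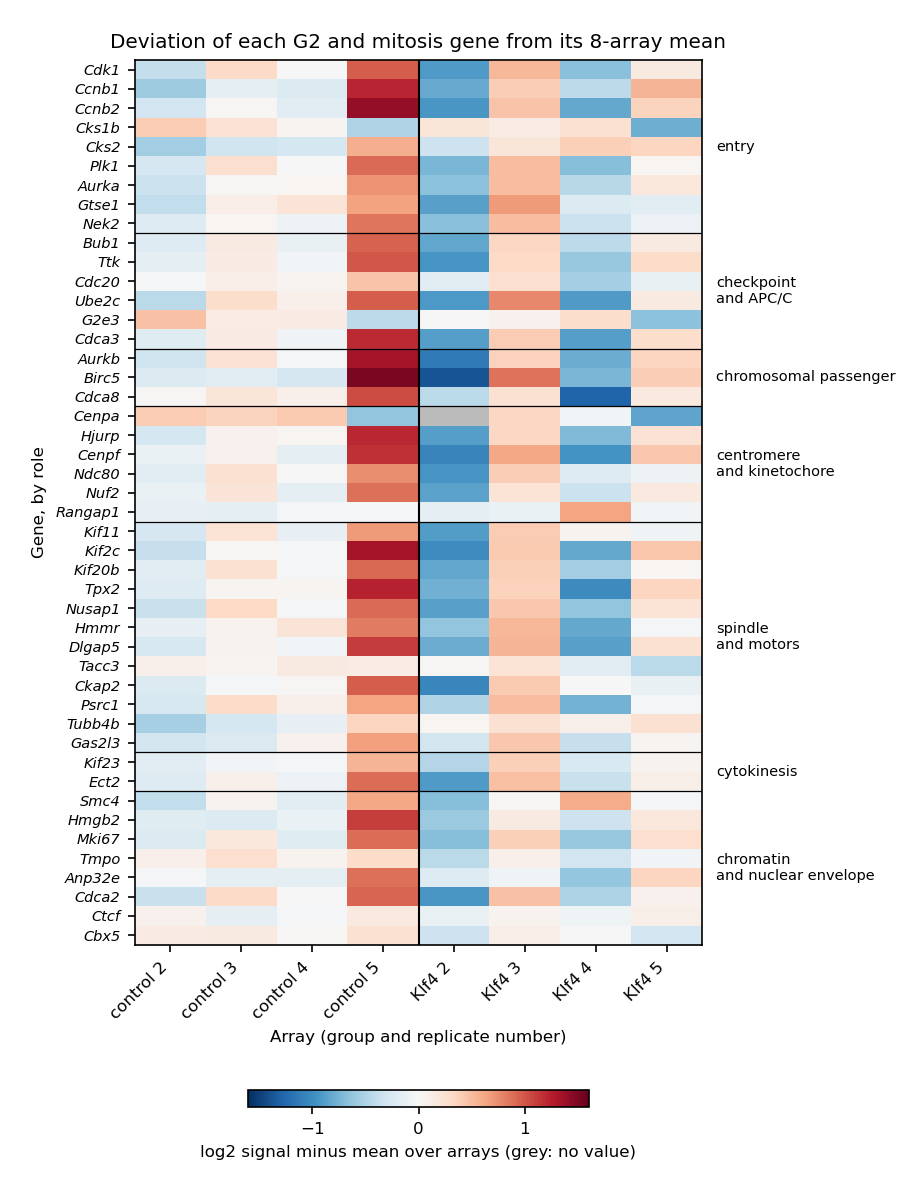
Each cell is the log2 signal of a gene (rows, ordered by role) on an array (columns) minus the gene's mean over the arrays; red is above and blue below, and grey marks a value left out as an outlier spot. Control 5 exceeds the median of the other controls in 43 of the 46 genes, and 30 genes have their lowest value on Klf4 2.

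By the replicate number in the labels the direction was not uniform. Klf4 minus control was below 0 in 43 of 45 members for number 2 (median -0.48), in 6 of 46 for number 3 (median 0.22), in 39 of 46 for number 4 (median -0.45) and in 46 of 46 for number 5 (median -0.74). The share of all features below 0 was 61.8%, 54.9%, 56.2% and 53.2% at the 4 numbers. In 39 of the 45 members with all values the difference was below 0 at 3 of the 4 numbers, a pattern seen in 31.8% of all features; Tmpo and Cbx5 were below 0 at all 4, Kif11 and Rangap1 at 2, and Cks2 and Tubb4b at 1. These numbers were not shown to pair the arrays, so the values are a description of the arrays and carry no test.

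**Figure D3:**
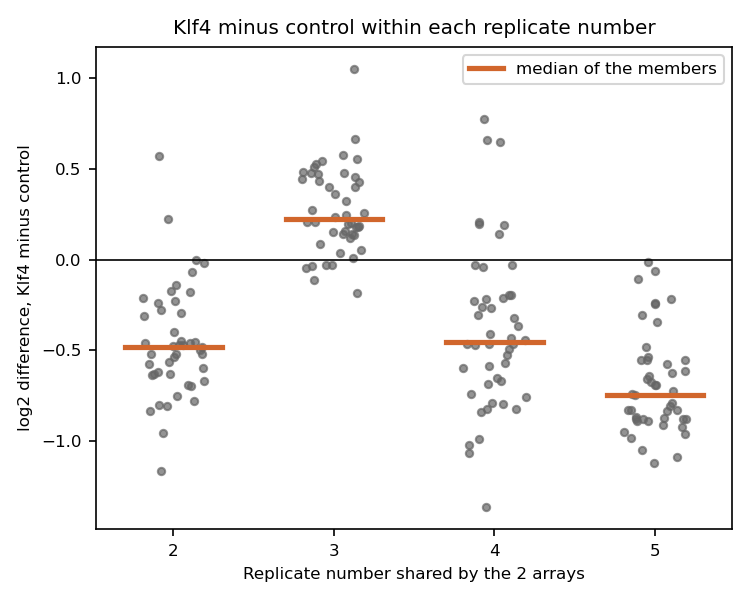
Each point is the log2 difference of 1 gene, Klf4 minus control, between the arrays that share a replicate number; lines are the medians. The medians are -0.48, 0.22, -0.45 and -0.74 at numbers 2 to 5.

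The scans were compared directly with a group-by-scan term in limma, in the 45 members with enough values. The Klf4 difference had a median of -0.22 in the first scan (39 of 45 below 0) and of -0.74 in the second (46 of 46 members below 0), where each group had a single array. The difference between scans was below 0 in 44 members, but 0 members passed the adjusted or the unadjusted threshold, with 0 of 30840 features passing the adjusted one and 4% the unadjusted one. The lowest unadjusted p of a member was 0.0854, with an adjusted p of 0.987. Scan and array cannot be told apart in the second scan.

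Among the 9 genes of mitotic entry, 8 lay below the control mean and 1 above, with a median difference of -0.29 and limma adjusted p-values from 0.735 to 0.965. Values are given in the order of the numbers 2 to 5. Cdk1, the kinase whose activation with cyclin B starts mitosis, read 2.35, 3.04, 2.74 and 3.71 on the control arrays and 1.83, 3.27, 2.06 and 2.88 on the Klf4 arrays. Control 5 was its highest array, Klf4 2 its lowest, and the groups overlapped; the log2 difference, Klf4 minus control, was -0.45 (SE 0.39, limma adjusted p = 0.767). Ccnb1, cyclin B1, read -0.90, -0.47, -0.55 and 0.89 on the control arrays and -1.14, 0.069, -0.74 and 0.22 on the Klf4 arrays, a difference of -0.14 (SE 0.44) with overlapping groups. That of Ccnb1 reversed to 0.24 without control 5, 0.11 without Klf4 2, 0.036 in the first scan alone and 0.20 with array weights. Ccnb2, cyclin B2, read 1.52, 1.85, 1.66 and 3.23 on the control arrays and 0.90, 2.29, 1.01 and 2.18 on the Klf4 arrays, so that control 5 lay above all other arrays and Klf4 2 and Klf4 4 below all others; the difference was -0.47 (SE 0.47, limma adjusted p = 0.803). Plk1, the Polo kinase of mitotic entry and spindle assembly, read 2.21, 2.73, 2.47 and 3.39 on the control arrays and 1.75, 2.98, 1.80 and 2.51 on the Klf4 arrays. Control 5 again stood highest and Klf4 2 and Klf4 4 lowest, with overlapping groups and a difference of -0.44 (SE 0.34, limma adjusted p = 0.735). Aurka, the Aurora kinase of the centrosomes, read 1.03, 1.40, 1.41 and 2.10 on the control arrays and 0.72, 1.87, 0.94 and 1.55 on the Klf4 arrays on the brighter of its probes, with overlapping groups and a difference of -0.22 (SE 0.31). Cks2, a small subunit bound by CDK1, read 2.82, 3.05, 3.10 and 3.96 on the control arrays and 3.04, 3.56, 3.76 and 3.71 on the Klf4 arrays, the only entry gene with a higher Klf4 mean, by 0.29 (SE 0.27, limma adjusted p = 0.793); control 5 was still its highest array. The other members were Cks1b (-0.11), Gtse1 (-0.29), a G2 and S phase-expressed protein, and Nek2 (-0.30), a centrosome kinase.

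The 6 genes of the checkpoint and the APC/C were all below the control mean, with a median of -0.42 and limma adjusted p-values of 0.685 to 0.908. Bub1, a checkpoint kinase at kinetochores, read 0.98, 1.32, 1.06 and 2.13 on the control arrays and 0.35, 1.51, 0.76 and 1.32 on the Klf4 arrays. Ttk, the checkpoint kinase MPS1, read 0.36, 0.64, 0.46 and 1.49 on the control arrays and -0.45, 0.82, -0.10 and 0.80 on the Klf4 arrays. For both, control 5 was highest, Klf4 2 lowest, and the groups overlapped; the differences were -0.38 (SE 0.33) and -0.47 (SE 0.36). Cdc20, an activator of the APC/C, varied less and read 1.71, 1.85, 1.79 and 2.20 on the control arrays and 1.57, 2.00, 1.20 and 1.63 on the Klf4 arrays, with its lowest value on Klf4 4 and a difference of -0.29 (SE 0.20, limma adjusted p = 0.685). Ube2c, the ubiquitin-conjugating enzyme that works with the APC/C, read -0.23, 0.49, 0.29 and 1.17 on the control arrays and -0.71, 0.97, -0.70 and 0.35 on the Klf4 arrays. Its Klf4 arrays spread more widely than its controls, and Klf4 3 was second only to control 5; the difference was -0.45 (SE 0.44). Cdca3, a trigger of mitotic entry through degradation of WEE1, read 1.87, 2.19, 2.00 and 3.25 on the control arrays and 1.18, 2.46, 1.18 and 2.34 on the Klf4 arrays, a difference of -0.54 (SE 0.41, limma adjusted p = 0.73), among the 4 lowest of the members. G2e3, a ubiquitin ligase-like protein expressed in G2, was at -0.15 and was highest on control 2.

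The chromosomal passenger genes, which encode parts of the complex that corrects attachments of chromosomes to the spindle, had the lowest median of the roles (-0.60, 3 genes, limma adjusted p 0.591 to 0.874). Aurkb, its Aurora kinase, read -2.71, -2.16, -2.42 and -1.06 on the control arrays and -3.52, -2.02, -3.18 and -2.04 on the Klf4 arrays, that is lowest on Klf4 2 and highest on control 5, with a difference of -0.60 (SE 0.46, limma adjusted p = 0.727). Birc5, survivin, read -0.12, -0.082, -0.17 and 1.61 on the control arrays and -1.28, 0.97, -0.63 and 0.49 on the Klf4 arrays. Its SD was the widest of the 46, 0.866 in controls and 1.03 in the Klf4 group, and the difference was -0.43 (SE 0.57). Without control 5 that value was 0.0070. Cdca8, borealin, read -1.87, -1.69, -1.81 and -0.84 on the control arrays and -2.32, -1.64, -3.17 and -1.72 on the Klf4 arrays, lowest on Klf4 4; its difference of -0.66 (SE 0.37, limma adjusted p = 0.591) was the lowest of the members, a fold of 0.633.

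The centromere and kinetochore genes, 6 in number, gave 5 values below and 1 above the control mean (median -0.42, limma adjusted p 0.714 to 0.839). Cenpa, the centromeric histone H3, read 1.06, 1.01, 1.08 and 0.020 in the controls and 0.98, 0.61 and -0.20 on Klf4 arrays 3 to 5, since its spot on Klf4 2 was an outlier spot and left out. On this brighter probe its lowest values were on the arrays numbered 5, opposite to most members, and its difference was -0.33 (SE 0.36). The other kept probe of Cenpa was highest on control 5 (-0.43), like most members, with a difference of -0.20. Ndc80, the outer kinetochore protein that binds microtubules, read 1.10, 1.52, 1.28 and 2.02 on the control arrays and 0.32, 1.66, 1.07 and 1.19 on the Klf4 arrays, with control 5 highest, Klf4 2 lowest and overlapping groups; its difference was -0.42 (SE 0.30, limma adjusted p = 0.714). Rangap1, the Ran GTPase activator also found at kinetochores, read 1.43, 1.41, 1.54 and 1.53 on the control arrays and 1.41, 1.45, 2.19 and 1.52 on the Klf4 arrays, with 7 arrays close together and Klf4 4 alone higher, and a difference of 0.16 (SE 0.19). Without Klf4 4 that difference was -0.018. Hjurp, the chaperone of CENP-A, Cenpf, a kinetochore protein, and Nuf2, the partner of NDC80, had differences of -0.51, -0.49 and -0.41.

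The spindle genes and motors were the largest group, 12 genes, of which 11 were below and 1 above (median -0.40, limma adjusted p 0.659 to 0.955). Kif11, the kinesin that pushes spindle poles apart, read 0.38, 0.88, 0.52 and 1.34 on the control arrays and -0.24, 1.06, 0.71 and 0.59 on the Klf4 arrays, with overlapping groups, highest on control 5, lowest on Klf4 2, and a difference of -0.25 (SE 0.31). Without Klf4 2 that value was 0.0082. Tpx2, an activator of Aurora A on spindle microtubules, read -0.041, 0.21, 0.21 and 1.40 on the control arrays and -0.60, 0.53, -0.86 and 0.51 on the Klf4 arrays, lowest on Klf4 4 and highest on control 5; the difference was -0.55 (SE 0.42, limma adjusted p = 0.731). Tubb4b, a beta-tubulin, read 5.44, 5.69, 5.84 and 6.32 on the control arrays and 6.01, 6.21, 6.05 and 6.22 on the Klf4 arrays: the Klf4 arrays lay between 6.01 and 6.22, above 3 of the 4 controls and below control 5. Its difference was 0.30 (SE 0.19, limma adjusted p = 0.659), the highest of the 46. The remaining 9 were Kif2c, a microtubule-depolymerising kinesin, at -0.48, Kif20b, a cytokinesis kinesin, at -0.49, Hmmr at -0.48, Dlgap5 at -0.44, Nusap1 at -0.42, Psrc1 at -0.38, Ckap2 at -0.37, Tacc3 at -0.19 and Gas2l3 at -0.098.

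The cytokinesis genes were Kif23 and Ect2. Kif23, the kinesin of the midzone that separates the daughter cells, read -0.45, -0.33, -0.31 and 0.26 on the control arrays and -0.75, 0.10, -0.52 and -0.22 on the Klf4 arrays, with overlap, control 5 highest and Klf4 2 lowest, and differed by -0.14 (SE 0.23, limma adjusted p = 0.907). Without control 5 that value was 0.016. Ect2, the exchange factor that activates RhoA there, was at -0.34 (SE 0.34, limma adjusted p = 0.812).

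All 8 genes of chromatin and the nuclear envelope were below the control mean (median -0.28, limma adjusted p 0.412 to 0.986). Mki67, the proliferation marker Ki-67, which coats mitotic chromosomes, read 2.81, 3.20, 2.84 and 3.92 on the control arrays and 2.34, 3.40, 2.43 and 3.30 on the Klf4 arrays, with control 5 highest and Klf4 2 lowest and a difference of -0.32 (SE 0.34). Hmgb2, a DNA-bending protein of cycling cells, read 5.03, 5.01, 5.12 and 6.33 on the control arrays and 4.64, 5.37, 4.89 and 5.41 on the Klf4 arrays, the control 5 value lying far above the other controls; the difference was -0.30 (SE 0.33) and 0.021 without control 5. Tmpo, which encodes lamina-associated polypeptide 2, read 2.11, 2.29, 2.08 and 2.32 on the control arrays and 1.59, 2.10, 1.72 and 1.98 on the Klf4 arrays, and the groups overlapped only through Klf4 3 at 2.10 and control 4 at 2.08. Its difference was -0.35 (SE 0.15, 95% interval -0.70 to -0.0041, unadjusted p = 0.0479, limma adjusted p = 0.412). Ctcf, the insulator protein, read 3.39, 3.17, 3.29 and 3.47 on the control arrays and 3.21, 3.37, 3.25 and 3.41 on the Klf4 arrays; it varied least of the members, with an SD of 0.107 over the 8 arrays, and its difference was -0.017 (SE 0.12). Cbx5, heterochromatin protein 1 alpha, read 0.88, 0.88, 0.76 and 0.99 on the control arrays and 0.41, 0.85, 0.73 and 0.43 on the Klf4 arrays, also narrow, with a difference of -0.27 (SE 0.14, limma adjusted p = 0.548). Smc4, a condensin subunit, Anp32e, a chaperone of H2A.Z, and Cdca2, a mitotic chromosome phosphatase regulator, were at -0.044, -0.27 and -0.44.

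**Figure D4:**
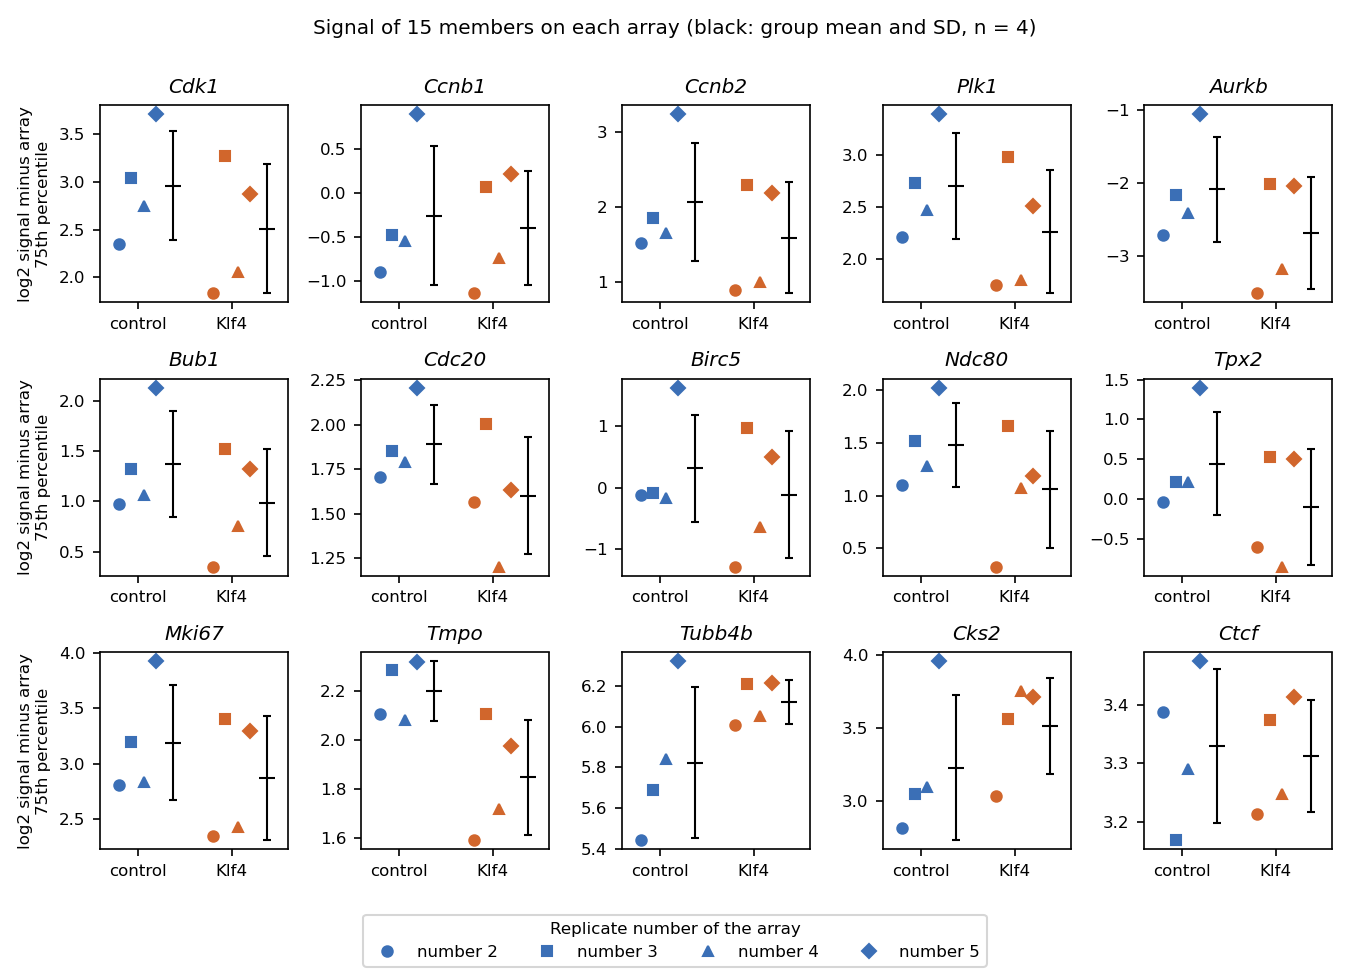
Log2 signal minus the array's 75th percentile on each array for 15 of the genes, with the mean and SD of each group (n = 4); symbols give the replicate number. The 15 were picked as examples and include none of the 6 members that were highest on another array than control 5. Control 5 is the highest array in each of the 15 panels, and 13 of the 15 have a Klf4 mean below the control mean.

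The promoter groups had similar median SDs and median differences, with wide ranges inside the groups. The 24 members with both CHR and CCAAT letters had a median SD over the 8 arrays of 0.536 and a median difference of -0.36. The 18 with one or neither had 0.488 and -0.30, and the 6 among them with neither had 0.497 and -0.28. Control 5 exceeded the median of the other controls by a median of 0.927 in the members with both motifs. That value was 0.879 with one or neither and 0.619 with neither. Of the 6 with neither, the SDs were 0.75 for Kif2c, 0.531 for Bub1, 0.524 for Gtse1, 0.469 for Aurka, 0.212 for Cbx5 and 0.107 for Ctcf. With both motifs the SDs ran from 0.213 for Tacc3 to 0.908 for Birc5. The 11 with a KLF-type box had a median difference of -0.35 and the 31 without one -0.32. No test was made between these groups.

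Of the 46 genes, 15 had more than 1 probe kept, and in 3 the probes gave differences of opposite sign: Aurka, Cks1b and Rangap1. The dimmer Aurka probe, which lists a predicted RefSeq transcript of the gene where the brighter one lists a curated transcript, is described on its own. It read -1.36, -1.36, -1.58 and -1.35 on control arrays 2 to 5 and 0.76, -0.20, -0.58 and 0.87 on Klf4 arrays 2 to 5. Every Klf4 array lay above every control, by a log2 difference of 1.63 (SE 0.32, 95% interval 0.89 to 2.36, a fold of 3.09, limma adjusted p = 0.0285 over 34730 single probes, of which 3.63% were called, 3.12% higher). It was the 1 of 65 kept member probes that was called. It missed the threshold with only the arrays of the first scan (adjusted p 0.133), with the slide row as a block (0.0503), without the filter on dim probes (0.0516), and without control 2, 3, 4 or 5 or Klf4 2 or 5 (0.0651 to 0.0973). In Cks1b the fitted probe read lowest on the arrays numbered 5 (-0.11 overall) and the other probe highest among the controls on control 5 (0.33 overall); for Cenpa the other probe likewise stood highest among controls on control 5, opposite to the fitted one. In Rangap1 the differences were 0.16 on the fitted probe and -0.47 on the other. What sequence each probe carries, and which transcripts it binds, is not used here.

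**Figure D5:**
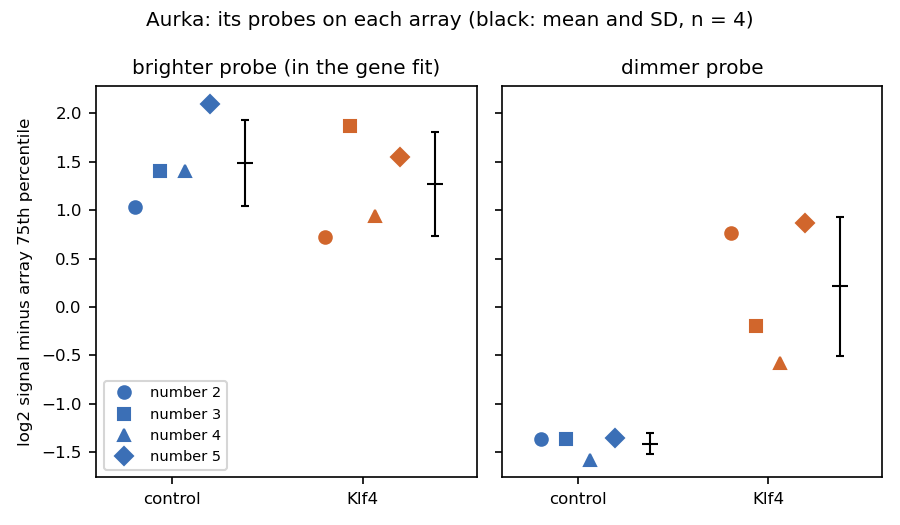
Log2 signal minus the array's 75th percentile for the brighter (left) and dimmer (right) Aurka probe on the 8 arrays, with mean and SD (n = 4). The groups overlap on the left, and on the right the Klf4 arrays all lie above the controls, at -0.58 or more against -1.35 or less.

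The other genes of the pathway were counted the same way. Of 109 further mitosis genes in 4 lists (entry switches, checkpoint and APC/C, spindle and kinetochore, and chromosome structure), 88 were on the array and 87 were fitted: 1 was higher and 0 lower by limma, with 67 below 0 and a median of -0.17. The one that rose was Lmna, an A-type lamin of the nuclear envelope, at -1.26, -0.61, -0.85 and -0.82 in the controls and 2.98, 2.39, 2.21 and 3.06 in the Klf4 group, a difference of 3.55 (limma adjusted p = 0.000145). The 4 lists differed. The median was -0.41 in the 33 spindle, kinetochore and cytokinesis genes (29 below 0) and -0.17 in the 11 entry switches (9 below 0). It was -0.060 in the 24 checkpoint and APC/C genes (16 below 0) and -0.032 in the 19 genes of chromosome structure (13 below 0). Ccna2, cyclin A2, the cyclin of S phase and G2, stood at -0.48 (limma adjusted p = 0.761), Wee1, the inhibitory kinase of CDK1, at -0.26 (0.759) and Cdc25b, the activating phosphatase, at -0.17 (0.836). Top2a had no probe matched and was not analysed here. The 37 S phase genes held 0 higher and 0 lower, with 34 below 0 and a median of -0.33; Pcna, the replication clamp, was at -0.13 (limma adjusted p = 0.923). Their mean deviation was highest on control 5 (0.83) and lowest on Klf4 2 (-0.52), as for the members, but was -0.044 on Klf4 3, where that of the members was 0.35. At number 3, 78.4% of the S phase genes were below 0, against 13% of the members. Of 18 regulators of mitosis genes 0 were higher and 0 lower, with Foxm1 at -0.46 and Mybl2 at -0.13 (limma adjusted p 0.756 and 0.969); both were highest on control 5.

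In a list of 14 genes that arrest the cycle in G1 or act in the p53 response, 3 were higher and 1 lower by the same test, which called 3.17% of all features higher and 0.451% lower. Cdkn1c (p57) rose by 1.53 (SE 0.17, limma adjusted p = 0.00149), Cdkn1a (p21) by 1.51 (SE 0.25, adjusted p = 0.0132) and Tob1, an antiproliferative protein, by 0.90 (SE 0.12, adjusted p = 0.0044). In each of the 3, all Klf4 arrays lay above all controls, as in 5.64% of all features. Plk2, a Polo-like kinase induced by p53, fell by 0.96 (SE 0.18, limma adjusted p = 0.0212), with all Klf4 arrays below all controls, as in 4.47% of all features. The Cdkn1a call was lost with probes averaged, in the first scan alone and without Klf4 2 (limma adjusted p 0.0549 to 0.0949). That of Plk2 was lost in the first scan alone and without control 2, control 4, Klf4 2, Klf4 5 or both arrays numbered 4 (0.0560 to 0.0842). Both calls also missed the threshold with the replicate number as a block. These lists were chosen with results of these data in view.

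Sorting keeps several cell types, and the summed signal of their markers moved in several ways beside the members. The summed linear signal of the 14 progenitor markers, relative to the 75th percentile, ran from 103 to 143 in the controls and 127 to 163 in the Klf4 group, with control 5 the highest of the controls, as for the members. The highest sum of all 8 was that of Klf4 4 (163), where the members were among the lowest, and Klf4 2, where most members were lowest, read 129. A sum is led by its brightest markers. With each marker counted alike, the mean deviation of the 14 was 0.078, 0.11, -0.022 and 0.18 on Klf4 arrays 2 to 5. It was -0.29, -0.10, -0.17 and 0.22 on control arrays 2 to 5. On Klf4 4, 5 of the 14 had their highest value and 5 their lowest. The summed signal of the 10 photoreceptor markers was 243, 209, 244 and 191 on control arrays 2 to 5. It was 151, 149, 257 and 123 on Klf4 arrays 2 to 5, so that the sum of Klf4 4 lay above all controls and the others below them. The mean deviation of the 10 was 0.35, 0.36, 0.59 and -0.13 on control arrays 2 to 5. On Klf4 arrays 2 to 5 it was -0.27, -0.25, 0.17 and -0.82, with Klf4 4 below controls 2 to 4 and above control 5. By limma 2 of the 10, Crx and Rbp3, were lower (adjusted p 0.0385 and 0.0156). Of all features the test called 3.17% higher and 0.451% lower. Among the 5 ganglion cell markers fitted 1 was higher, Atoh7, and among the 4 endothelial ones fitted 2 were, Esam and Tek. In the amacrine and horizontal, microglial, pericyte and fibroblast, and astrocyte lists 1 each was higher: Ptf1a, C1qb, Col1a1 and S100b. Esam and S100b were well above background on 0 and 2 controls. They passed the filter on dim probes only through the Klf4 group, so the filter itself favoured a higher value. None of the lens, pigment epithelium or red blood cell markers fitted was called. Whether the cell makeup of the sorted samples set the members' values on single arrays was not tested.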

How the data were processed

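The scanner files give intensity values per spot as deposited: per the file headers, Agilent Feature Extraction 10.7.3.1 wrote a processed signal already background-subtracted and detrended within the array. Flag columns ("other" values) mark control, outlier, saturated and well-above-background spots, per the file headers. The authors also deposited log2 values, which show near-equal column medians and whose normalization is not stated; each column was closest to its own array (r 0.994 to 1.00), and they served as an alternative.

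From the intensity, outlier gene spots were dropped, log2 was taken, spots of a probe were averaged, and the array's 75th percentile over gene probes was subtracted. Probes well above background on at least 3 of 4 arrays of a group were kept, and the brightest kept probe stood for a gene with a symbol. Probes without a symbol were each kept as a feature. This left 31072 features, of which 13595 had a symbol. Groups were compared with limma 3.58.1 in R 4.3.3 (lmFit, eBayes, Benjamini-Hochberg over all features, threshold 0.05). The procedure was also run on simulated data with noise independent between features and arrays. Those data held no array differences shared by many genes, so the run is no check against such differences. Depth does not apply to arrays: their number, 4 per group, limits the precision.

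Values on every array were given for 20 chosen members, for the 4 with the lowest and the 4 with the highest differences, and for any member with an unadjusted p under 0.05. Of the other lists, genes past the threshold and 8 chosen ones were named. The members and lists were chosen with earlier results of these data known. Alternatives covered normalization, background, the filter, probe averaging, the authors' values, array weights, scan, slide row, the replicate block, the arrays numbered 4 and each array left out. The files hold no mean spot signal, so normexp used the median spot signal in its place. Promoter letters were searched with Python 3.11.15.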

Additional observations from a re-analysis of the deposited data

Results flagged for a closer look

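In 9 of 95 groups of 4 tested, 1 array lay far from the other 3 by Dixon's test at its 95% level; chance gives about 1 in 20 groups, and the groups are not independent, since members share arrays. Control 5 was the highest control for Birc5 (1.61, the others between -0.17 and -0.082), Cdca8 (-0.84, the others between -1.87 and -1.69), Cenpf (0.30, the others between -1.03 and -0.81), Hmgb2 (6.33, the others between 5.01 and 5.12) and Anp32e (0.97, the others between -0.067 and 0.072). It was the lowest control for the brighter probe of Cenpa (0.0196, the others between 1.01 and 1.08), but not for its other probe. Klf4 5 was the lowest Klf4 array for Cks1b (2.58, the others between 3.48 and 3.60), and Klf4 4 the highest for Rangap1 (2.19, the others between 1.41 and 1.52). The dimmer Aurka probe was lowest among the controls on control 4 (-1.58, the others between -1.36 and -1.35). All values are log2 signals minus the array's 75th percentile.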

How the results depend on the processing

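The count of members called stayed at 0 higher and 0 lower under all 21 alternatives, and 31 to 43 members lay below 0. With single arrays left out, members below 0 ranged from 36 to 43 and the median difference from -0.56 to -0.18. The replicate numbers were checked for pairing: the correlation of same-numbered deviations was 0.35, 0.233, 0.0631 and 0.552 at numbers 2 to 5, so number 4 gave little and the numbers were not taken to pair the arrays. Each array correlated best with its own number at numbers 2, 3 and 5 but not at 4, a hint from the data, and the arrays numbered 5 also share a scan. Scan, slide row and replicate number were each balanced over the groups. As blocks they could move p-values, but not the difference of a gene with all values. The replicate block gave 0 members higher and 0 lower, 43 below 0 and 3 members with an unadjusted p under 0.05. Over all features it gave 863 higher and 104 lower against 984 and 140. Cdkn1a and Plk2 missed the threshold with it (limma adjusted p 0.0502 and 0.0787). Array weights gave 1910 higher and 1291 lower features, the first scan alone 652 and 48, the scan as a block 251 lower, and no filter on dim probes 68 lower. With arrays left out, features higher ranged from 623 to 1262 and lower from 32 to 415. Further mitosis genes higher numbered 3 under array weights, 2 when scan was a block and 2 in the first scan alone; 2 were lower with array weights and 1 without both arrays numbered 4; with single arrays left out they ranged from 1 to 2 higher and from 0 to 1 lower. S phase genes gave 1 higher and 1 lower with array weights and 1 lower with probes averaged, and from 0 to 1 lower with an array left out. The dimmer Aurka probe's difference was 1.63 with no filter on dim probes and with the slide row as a block and 1.43 in the first scan alone, and ranged from 1.41 to 1.89 with an array left out. With array weights the direction reversed for Ccnb1 (0.20), Ccnb2 (0.027), Aurka (0.070), Ube2c (0.021), Birc5 (0.18), Kif23 (0.087), Mki67 (0.038), Ctcf (0.035) and Rangap1 (-0.017). It also reversed for Aurka with probes averaged (0.71), for Ctcf on the array median (0.016) and for Ccnb1 in the first scan alone (0.036). With single arrays left out it reversed for Ccnb1, Birc5, Cenpa, Kif11, Kif23, Hmgb2, Ctcf and Rangap1: Ccnb1 ranged from -0.35 to 0.24, Birc5 from -0.79 to 0.0070, Cenpa from -0.58 to 0.0056, Kif11 from -0.42 to 0.0082, Kif23 from -0.29 to 0.016, Hmgb2 from -0.42 to 0.021, Ctcf from -0.071 to 0.031 and Rangap1 from -0.018 to 0.24. The cause was not tested.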
